A study of Drosophila melanogaster with 6 samples.

Results

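The insulin and TOR pathway sets the rate of growth and of ribosome production, and 9 of its genes are described here in fly cells in which the ribosomal RNA methyltransferase Fibrillarin was targeted. The genes were taken by name: InR, chico, foxo, Thor, Tor, raptor, S6k, REPTOR and REPTOR-BP are 9 of the 23932 genes in the count tables. A 10th name, Akt, is not in the tables as such. The same gene, by its identifier, is listed there as Akt1, and its values are given beside the 9 without counting it among them.

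Insulin-like peptides bind the receptor InR, which acts through its substrate Chico, PI3 kinase and the kinase Akt1. Akt1 keeps the transcription factor Foxo out of the nucleus. The kinase Tor, in a complex with Raptor, activates S6k, restrains the translation inhibitor Thor (the fly 4E-BP) and keeps the transcription factor REPTOR in the cytoplasm. When TOR activity is low, REPTOR enters the nucleus and acts with its partner REPTOR-BP. Most of these steps are changes in protein phosphorylation, which RNA sequencing does not measure, so the values below are levels of the mRNAs.

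Total RNA of S2R+ cells, an established line from late Drosophila embryos, was depleted of ribosomal RNA and sequenced by TGIRT-seq, which uses a thermostable group II intron reverse transcriptase. There were 3 libraries from cells treated with double-stranded RNA against Fib (dsFib) and 3 from cells treated with double-stranded RNA against the bacterial gene lacZ (dsLacZ, the control). All 6 libraries thus came from cells exposed to double-stranded RNA, all of the same line, with no other genetic change named. Separate cultures are not stated for the replicates, so p-values are relative to the variation among libraries, part or all of which could be technical.

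Libraries held 11695250 to 15172052 counts. Fib, the targeted gene, had 1312, 955 and 994 CPM in the libraries labelled dsFib, against 214, 257 and 227 CPM in dsLacZ (4.67-fold, adjusted p = 0.00103, edgeR's quasi-likelihood test). CPM are counts scaled to a common library size by TMM, edgeR's trimmed mean of M values, unless stated otherwise. The counts of Fib thus went against the label. What these counts come from was not tested, and all directions are those of the libraries labelled dsFib over dsLacZ. One library stood apart: nuclear tRNA took 18.3% of the counts in dsLacZ replicate 2. This share was 10.8% and 11.1% in dsLacZ replicates 1 and 3, and 14.9%, 13.4% and 15.3% in the libraries labelled dsFib. Of 8302 genes tested, 44 were called higher and 31 lower, or 5 and 26 when libraries were scaled by total counts alone. Of 8 haemocyte markers fixed for S2R+ cells, 5 passed the filter on low counts, led by the scavenger receptor gene crq at 226 to 299 CPM. NimC1 and Sr-CI stayed at or under 0.692 CPM and He was at 0. The summed haemocyte markers were 308 to 336 CPM in libraries labelled dsFib and 339 to 361 CPM in dsLacZ. This sum is mostly crq, and without it the sums were 73.5 to 95.6 CPM in libraries labelled dsFib and 62.3 to 78.4 CPM in dsLacZ. Of the 5 tested, crq alone lay below 0, and Hml had 10.4, 14.2 and 9.83 CPM in libraries labelled dsFib, against 7.16, 3.36 and 7.96 CPM in dsLacZ. Of 6 markers of other cell types, elav was at 25.4 to 30.04 CPM and the other 5 were at or under 0.692 CPM, with grh and repo at 0. The part of these markers in the results was not tested, and in bulk RNA a change in the share of a kind of cell cannot be told apart from a change in RNA per cell.

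All 9 genes passed the filter on low counts, and they differed widely in level. Levels can be compared between genes only per length, for which the deposited TPM were used. The gene lengths behind these TPM are the authors' and are not given. Counts per nucleotide of the merged exons given below would instead put REPTOR-BP above REPTOR in most libraries. By the median TPM of the 6 libraries, REPTOR ranked first with 20.8 TPM (lowest 10.7, highest 28.5), and REPTOR-BP had 16.8 TPM (14.2 to 23.4). Akt1 followed with 11.3 TPM (8.32 to 15.04), S6k with 8.58 TPM (4.06 to 11.7) and Tor with 5.17 TPM (3.54 to 8.04). These 5 genes lay above the remaining 5 in every library. InR had 2.35 TPM (1.59 to 3.26), Thor 1.73 TPM (0.841 to 2.02) and foxo 1.66 TPM (1.28 to 1.94). At the low end, raptor had 1.12 TPM (0.837 to 1.86) and chico, the receptor's substrate, had 1.004 TPM (0.443 to 1.27).

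**Figure D1:**
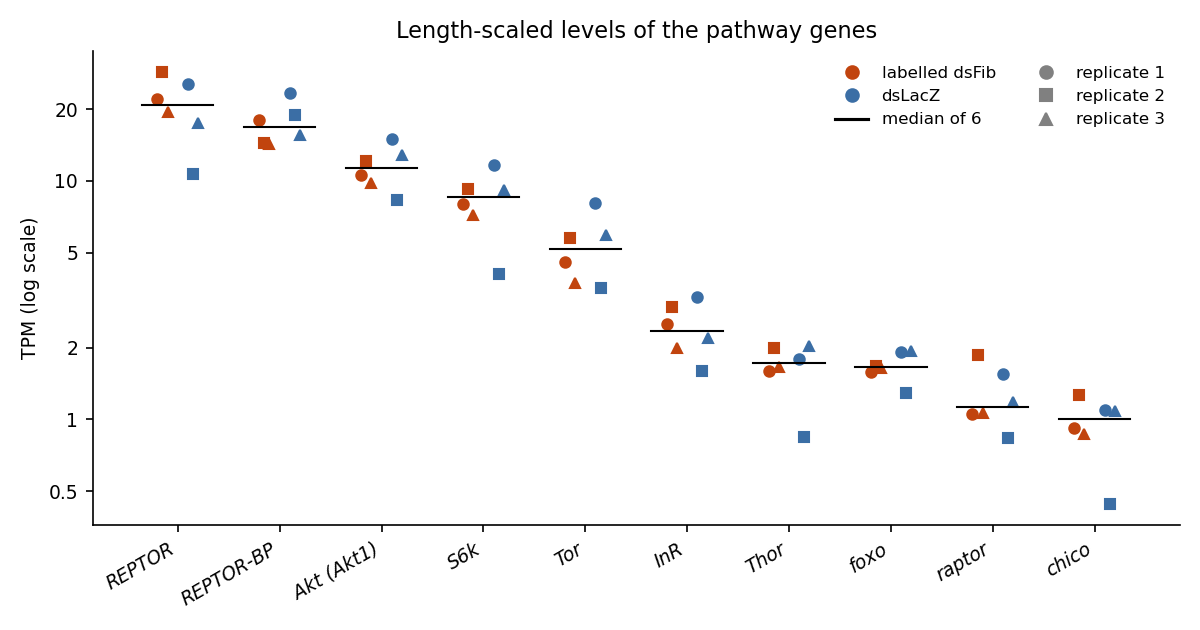
Deposited TPM on a log axis for the 9 genes and Akt1, ordered by the median of 6 libraries (black line), with 1 point per library. REPTOR, REPTOR-BP, Akt1, S6k and Tor sit above the other 5 genes within every library. By TPM, dsLacZ replicate 2 (blue square) gives the lowest value of most genes. In TMM-scaled CPM it was the lowest of the dsLacZ libraries for 6 of the 10.

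The order by deposited TPM was nearly the same in each library. Akt1, S6k, Tor, InR and chico held rank 3, 4, 5, 6 and 10 of the 10 in all 6 libraries. REPTOR ranked above REPTOR-BP in 5 of 6 libraries, dsLacZ replicate 2 being the exception. Thor ranked above foxo in 4 of 6 libraries and foxo above raptor in 5 of 6, so the order within these pairs is not fixed by the data. Taken over all libraries, the TPM ranges of neighbours in the order overlapped in every case but Tor and InR.

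The genes also differ in size and setting. By the Ensembl gene models, given in dm6 coordinates, InR (FBgn0283499; 3R, 21570248 to 21619321, minus strand) has 11367 nucleotides of merged exons. REPTOR (FBgn0039209; 3R, 24557368 to 24582864, minus strand) has 7133. Then there are Tor (FBgn0021796; 2L, 13004480 to 13013197, plus strand) with 7987, Akt1 (FBgn0010379; 3R, 16099228 to 16105670, plus strand) with 4889, S6k (FBgn0283472; 3L, 5797549 to 5810931, minus strand) with 4885 and foxo (FBgn0038197; 3R, 14056945 to 14087978, plus strand) with 4130. The shortest are Thor (FBgn0261560; 2L, 3478434 to 3479612, plus strand) with 755 and REPTOR-BP (FBgn0032202; 2L, 10264125 to 10265229, plus strand) with 634. The values of raptor (FBgn0029840; X, 6082634 to 6090201, minus strand) are uncertain, because 1669 nucleotides of its exons overlap exons of Mipp2 on the same strand. The exons of chico (FBgn0024248; 2L, 10242512 to 10247078, minus strand) overlap those of an antisense RNA over 380 nucleotides, and the sources used here do not state whether counting used the strand.

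The main question was whether mRNAs of the pathway differed between the groups. None of the 9 genes passed the edgeR test, while 0.903% of all genes tested did. At an unadjusted p of 0.05, 1 of the 9 was higher, REPTOR, and 0 were lower, against 7.67% and 8.26% of all genes. DESeq2 called 1 gene, again REPTOR, as it did 3.52% of the genes it tested, and limma-voom called 0 of the 9 and 0.807% of all. Of the 9 log2 fold changes, 7 were above 0 and 2 below, with a median of 0.21, against 48.3% above 0 and a median of -0.01 for all genes tested. Under each of 4 scalings of the libraries 7 of the 9 lay above 0, with medians between 0.17 and 0.22. With a library left out, 6 or 7 lay above 0 and the median was between 0.15 and 0.33. It was 0.15 without replicate 2 labelled dsFib, 0.15 without dsLacZ replicate 2 and 0.33 without dsLacZ replicate 1.

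**Figure D2:**
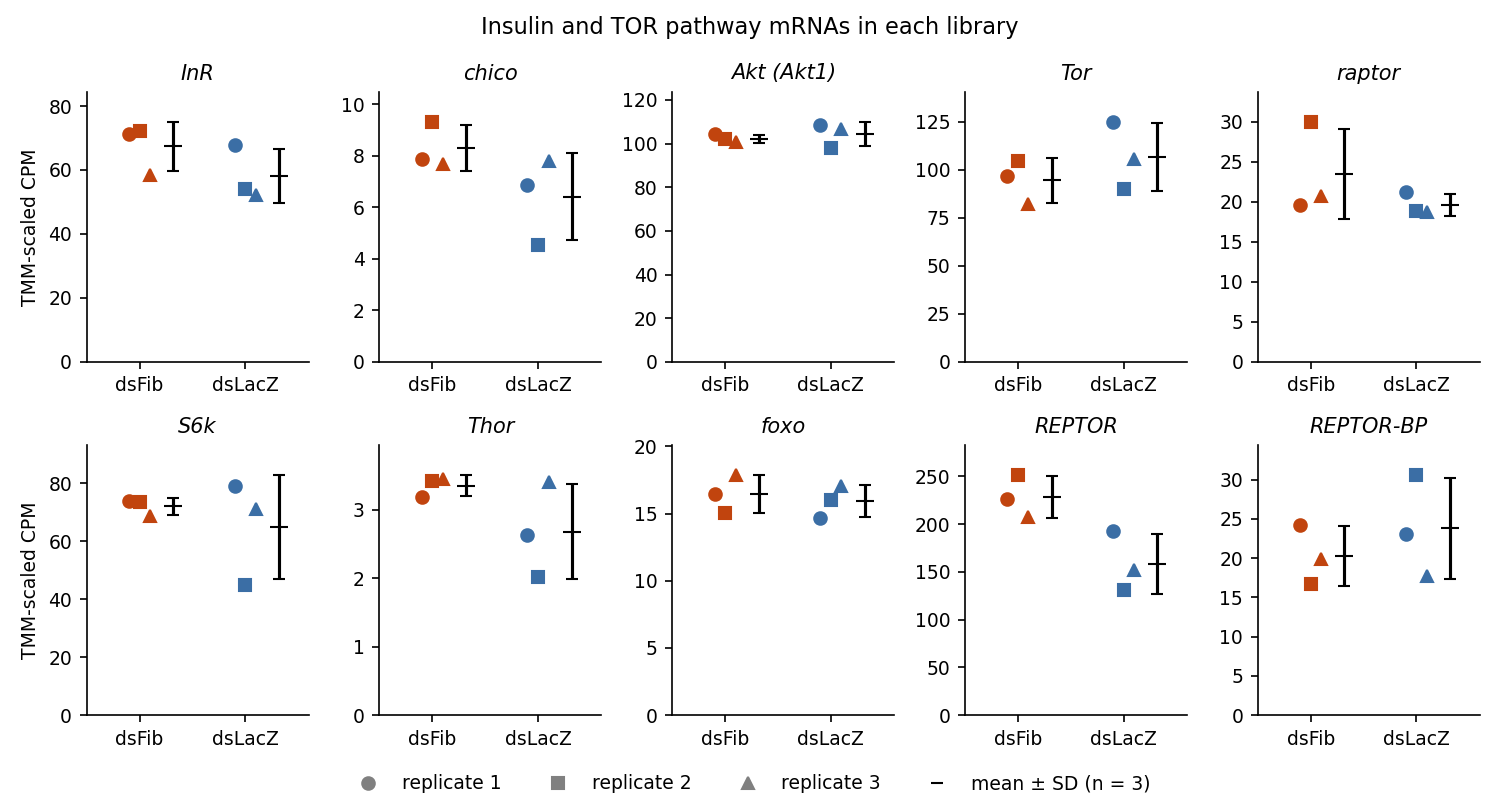
TMM-scaled CPM of each gene in the 3 libraries labelled dsFib (left, red) and the 3 dsLacZ libraries (right, blue), with mean ± SD (n = 3) in black. REPTOR is the single gene whose groups do not overlap, with 207 to 251 CPM in libraries labelled dsFib and 131 to 192 CPM in dsLacZ.

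REPTOR, the transcription factor that TOR holds in the cytoplasm, had the smallest p-value and the highest fold change. Its level was 226, 251 and 207 CPM in libraries labelled dsFib, against 192, 131 and 152 CPM in dsLacZ replicates 1, 2 and 3. Each library labelled dsFib lay above each dsLacZ library, as was the case for 11.0% of all genes tested. The means were 228 ± 21.9 and 158 ± 31.2 CPM (SD, n = 3 each), a fold of 1.44 with a 95% interval of 1.14 to 1.82. The log2 fold change was 0.53 (SE 0.15), and it did not pass the threshold (edgeR, adjusted p = 0.145). REPTOR passed with DESeq2 (adjusted p = 0.0419), without a filter on low counts (edgeR, adjusted p = 0.0368), without dsLacZ replicate 1 (edgeR, adjusted p = 0.0466) and with voom quality weights (adjusted p = 0.0167), which called 6.62% of all genes. DESeq2 called 3.52% of the genes it tested. Without a filter 283 genes passed, and without dsLacZ replicate 1 113 of 8513 did, against 75 of 8302 in the main fit. Over all alternatives the adjusted p of REPTOR ranged up to 0.433 and its log2 fold change lay between 0.41 and 0.70. The separation of the groups depended on scaling. In the deposited CPM, which are scaled by total counts alone, REPTOR had 219, 263 and 197 CPM in libraries labelled dsFib, against 215, 117 and 157 CPM in dsLacZ, so that the groups overlapped.

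REPTOR-BP, the DNA-binding partner that REPTOR acts with, had an estimate of the opposite sign. Its level was 24.2, 16.7 and 19.9 CPM in libraries labelled dsFib, against 23.1, 30.6 and 17.8 CPM in dsLacZ. The groups overlapped, and the highest value was that of dsLacZ replicate 2. Its log2 fold change was -0.23 (SE 0.22, edgeR adjusted p = 0.667), with an interval from 1.66-fold lower to 1.20-fold higher. Without dsLacZ replicate 2 it was -0.01 (SE 0.19), and with voom quality weights its sign turned (0.10).

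At the top of the pathway, the receptor gene InR had 71.4, 72.1 and 58.5 CPM in libraries labelled dsFib, against 67.8, 54.1 and 52.3 CPM in dsLacZ. The groups overlapped by the lowest library labelled dsFib, and the log2 fold change was 0.21 (SE 0.13, edgeR adjusted p = 0.472). Its fold of 1.16 had a 95% interval of 0.940 to 1.43, and without dsLacZ replicate 1 the log2 fold change was 0.35. The substrate gene chico was read at low depth, with 89 to 125 counts in libraries labelled dsFib and 54 to 110 counts in dsLacZ. It had 7.87, 9.32 and 7.68 CPM in libraries labelled dsFib, against 6.87, 4.53 and 7.82 CPM in dsLacZ. The lowest value came from dsLacZ replicate 2, and without it the log2 fold change was 0.17 in place of 0.37 (SE 0.24, edgeR adjusted p = 0.510 with all libraries).

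Akt1, the kinase that joins the insulin and TOR branches, had the smallest SE of the 10 genes. It had 104, 102 and 101 CPM in libraries labelled dsFib, against 108, 98.0 and 107 CPM in dsLacZ. Its log2 fold change was -0.03 (SE 0.09, edgeR adjusted p = 0.913), and the interval reached from 1.17-fold lower to 1.12-fold higher. A 1.5-fold difference in Akt1 in either direction thus lay outside the 95% interval. Its substrate gene foxo had 16.5, 15.1 and 17.9 CPM in libraries labelled dsFib, against 14.7, 16.03 and 17.1 CPM in dsLacZ. These groups overlapped almost fully, with a log2 fold change of 0.05 (SE 0.14, edgeR adjusted p = 0.911) and an interval from 1.21-fold lower to 1.29-fold higher.

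In the TOR complex, the kinase gene Tor had 96.6, 104.8 and 81.9 CPM in libraries labelled dsFib, against 124.8, 89.7 and 105.6 CPM in dsLacZ. The groups overlapped, and the log2 fold change of Tor was -0.18 (SE 0.14, edgeR adjusted p = 0.605), with an interval from 1.42-fold lower to 1.11-fold higher. It was -0.04 without dsLacZ replicate 1, -0.29 without dsLacZ replicate 2 and -0.08 without replicate 3 labelled dsFib. The gene of its partner Raptor, which brings substrates to the kinase, had 19.6, 29.96 and 20.8 CPM in libraries labelled dsFib, against 21.2, 18.8 and 18.8 CPM in dsLacZ. The difference was carried by replicate 2 labelled dsFib. The log2 fold change of raptor was 0.26 (SE 0.18, edgeR adjusted p = 0.528), and 0.06 without that library. Mipp2, which shares exon sequence with raptor, had a log2 fold change of -0.07.

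S6k, which phosphorylates ribosomal protein S6 on activation by TOR, had 73.96, 73.5 and 68.8 CPM in libraries labelled dsFib, against 79.01, 44.8 and 71.05 CPM in dsLacZ. The libraries labelled dsFib lay between the dsLacZ values, of which replicate 2 was far below the other 2. The log2 fold change was 0.15 (SE 0.19, edgeR adjusted p = 0.746), and without dsLacZ replicate 2 its direction turned, to -0.06 (SE 0.10). Thor, the inhibitor of the cap-binding protein eIF4E1 and a known Foxo target, was the gene with the fewest counts. It had 36, 46 and 50 counts in libraries labelled dsFib, against 36, 24 and 48 counts in dsLacZ. As CPM these were 3.19, 3.43 and 3.46 in libraries labelled dsFib, against 2.63, 2.01 and 3.41 in dsLacZ. The groups overlapped, with a log2 fold change of 0.32 (SE 0.32, edgeR adjusted p = 0.689), which was 0.15 without dsLacZ replicate 2 and 0.54 without dsLacZ replicate 3. At this depth the interval ran from 1.33-fold lower to 2.07-fold higher, so a doubling of Thor mRNA was within it.

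**Figure D3:**
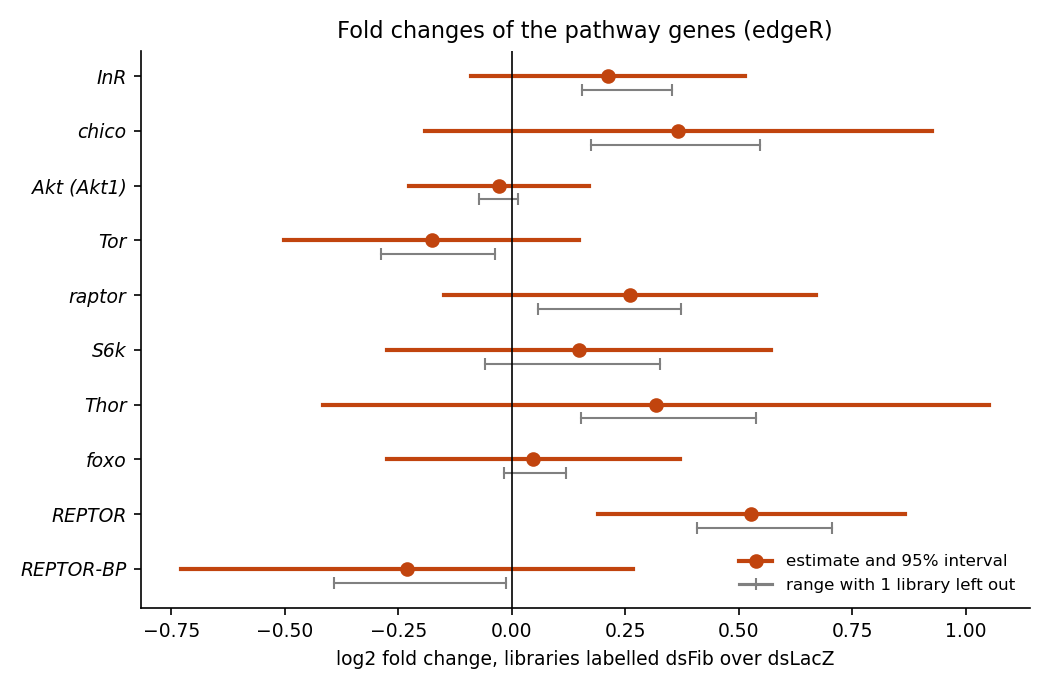
Log2 fold changes (libraries labelled dsFib over dsLacZ) with 95% intervals from edgeR for the 9 genes and Akt1, and below each, in grey, the range when 1 of the 6 libraries was left out. The interval of REPTOR (0.19 to 0.87) is the single one that does not include 0, and the grey ranges of Akt1, foxo and S6k cross 0.

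Library dsLacZ replicate 2 moved several of these values. It had the lowest of the 3 dsLacZ values for 6 of the 10 genes: chico, Akt1, Thor, Tor, S6k and REPTOR. Relative to the geometric mean of the other 2 dsLacZ libraries, S6k was at 0.598, chico at 0.618, Thor at 0.672, REPTOR at 0.767 and Tor at 0.781. REPTOR-BP was at 1.51, the highest of the 10. The 7035 protein-coding genes tested were split by merged exon length into 4 bins of like size. Bin 4, with the longest exons (3602 nucleotides or more, 7 of the 10 genes among them), had a median log2 ratio of -0.15 in this library over the other dsLacZ libraries. Bin 1, with the shortest (up to 1348 nucleotides, Thor and REPTOR-BP among them), had 0.05. The median log2 fold change between the groups was -0.02, -0.04, -0.04 and 0.05 in bins 1 to 4, which is not a steady rise with length. The part of this library's tRNA share and of exon length in the fold changes was not tested. Without it, REPTOR had a log2 fold change of 0.41 (SE 0.12, edgeR adjusted p = 0.108).

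Ratios of 2 genes within a library do not depend on how libraries are scaled, but a trend with exon length can still move them. REPTOR has 7133 and REPTOR-BP 634 nucleotides of merged exons, and in dsLacZ replicate 2 they were shifted in opposite directions. The part of exon length in the ratios was not tested. Ratios were taken for 6 pairs of partners, a choice made after the values of single genes were seen. The p-values of the ratios therefore cannot serve as support for a difference. Of the 9 genes, REPTOR had the highest and REPTOR-BP the lowest log2 fold change (0.53 and -0.23), so a shift in their ratio was built in. The log2 ratio of REPTOR to REPTOR-BP counts was 3.22, 3.91 and 3.38 in libraries labelled dsFib, against 3.06, 2.10 and 3.09 in dsLacZ. Every library labelled dsFib lay above every dsLacZ library, by a mean difference of 0.75 (exact two-sided permutation p = 0.1, the smallest that 3 against 3 libraries allow, and 0.3 after Benjamini-Hochberg adjustment over 6 pairs). Without dsLacZ replicate 2, this difference was 0.43. The log2 ratio of S6k to RpS6, kinase and substrate, was -0.66, -0.74 and -0.55 in libraries labelled dsFib, against -0.22, -0.54 and -0.18 in dsLacZ. These groups did not overlap either, though by a narrow margin, with a mean difference of -0.33 (exact permutation p = 0.1, adjusted 0.3). Groups of single genes did not overlap for 11.0% of all genes toward higher and 12.1% toward lower levels. The share over all pairs of genes was not computed. The log2 ratio of raptor to Tor was higher by 0.41 on average (exact permutation p = 0.2, adjusted 0.4), with overlapping groups. The pairs InR and chico, foxo and Akt1, and Thor and eIF4E1 had mean differences of -0.19, 0.07 and 0.11, each with an exact permutation p = 0.6.

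**Figure D4:**
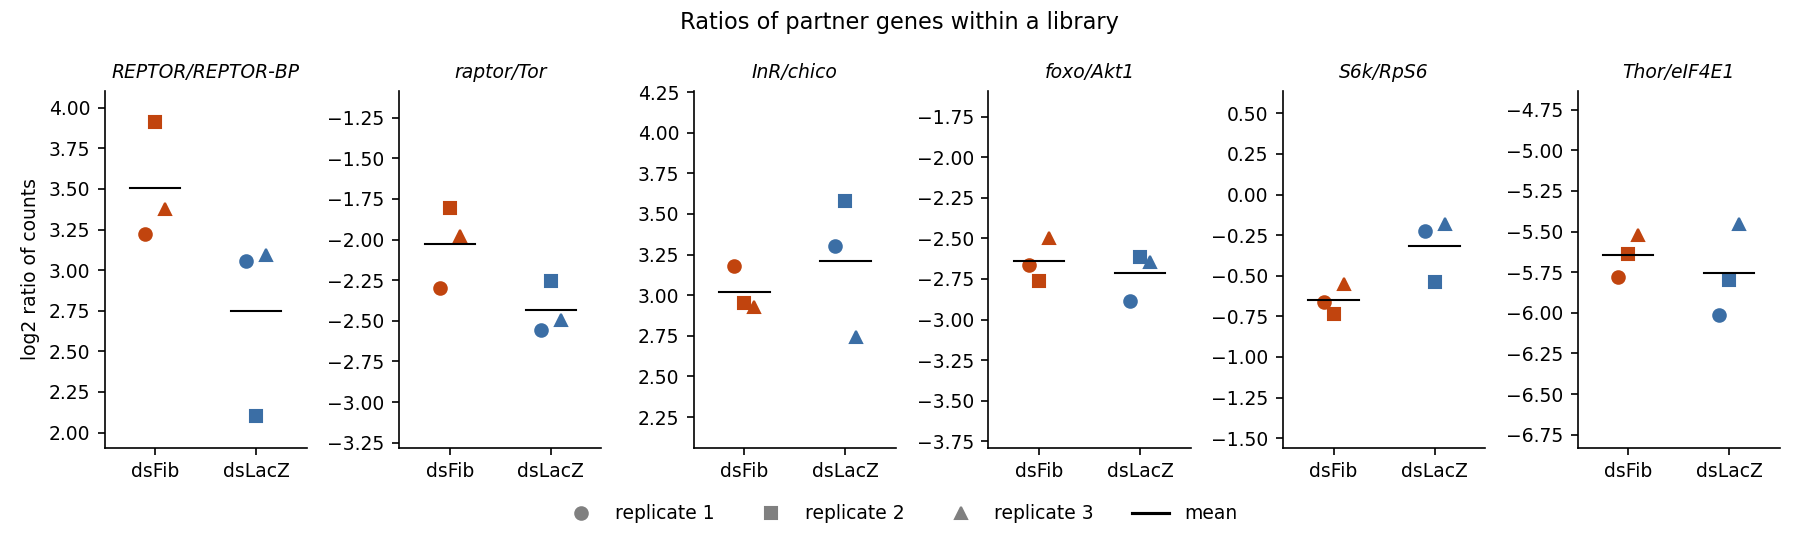
Log2 ratio of counts of 2 partner genes within each library, for 6 pairs, with libraries labelled dsFib on the left, dsLacZ on the right and group means as lines. Each panel spans the same height on the log2 scale, and the REPTOR to REPTOR-BP and S6k to RpS6 pairs are those without overlap between the groups. The share of all gene pairs without overlap was not computed.

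The rest of the pathway was read from 6 lists of 74 other genes, of which 59 were tested. None passed the edgeR test, against 0.903% of all genes, while 7 were higher and 1 was lower at the unadjusted threshold of 0.05, which 7.67% and 8.26% of all genes passed. By DESeq2, 2 of the 59 were higher, RpS6 and daw, a share close to its 3.52% of all genes, and by limma-voom 0. The median log2 fold change of the 59 was 0.04, with 35 above 0 and 24 below, against a median of -0.01 and 48.3% above 0 for all genes tested.

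Ligand genes had few or no counts. Of 8 insulin-like peptide genes, 5 had no count in any library (Ilp1, Ilp2, Ilp3, Ilp4 and Ilp7), which allows up to 3 counts or 0.208 to 0.265 CPM per library, for counting error alone. Ilp5 and Ilp8 had at most 2 and 6 counts. Ilp6 alone of the peptides passed the filter, with 1.59, 2.98 and 1.66 CPM in libraries labelled dsFib, against 1.75, 3.02 and 1.85 CPM in dsLacZ, and a log2 fold change of -0.08 (SE 0.43). ImpL2, a secreted protein that binds insulin-like peptides, had 15.9, 12.4 and 9.55 CPM in libraries labelled dsFib, against 10.1, 4.53 and 10.5 CPM in dsLacZ (log2 fold change 0.58, SE 0.32, edgeR adjusted p = 0.420). Leaving out replicate 1 labelled dsFib or dsLacZ replicate 2 gave 0.39 and 0.29.

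Of 11 adaptor and PI3 kinase branch genes, 10 were tested and melt had no count in any library. None of the 10 passed the threshold, 9 lay above 0, and the median log2 fold change was 0.11. The 2 with the smallest p-values were sgg, the fly glycogen synthase kinase 3, and wdb, a regulatory subunit of protein phosphatase 2A. The level of sgg was 64.6 ± 0.833 CPM in libraries labelled dsFib and 55.5 ± 2.32 CPM in dsLacZ (SD, n = 3 each; edgeR adjusted p = 0.259). That of wdb was 224 ± 4.35 CPM in libraries labelled dsFib and 256 ± 13.2 CPM in dsLacZ (edgeR adjusted p = 0.338). Neither gene had overlapping groups, against 11.0% of all genes higher and 12.1% lower without overlap, but in the deposited CPM those of sgg overlapped.

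Further subunits of the TOR complexes and their TSC regulators gave 6 values above 0 and 4 below among 10 tested, with a median log2 fold change of 0.17. Lst8, a subunit shared by both TOR complexes, had 82.3 ± 1.21 CPM in libraries labelled dsFib and 67.1 ± 9.02 CPM in dsLacZ (edgeR adjusted p = 0.247). The level of scyl, a stress-induced inhibitor of TOR signalling, was 41.8 ± 6.70 CPM in libraries labelled dsFib and 30.1 ± 6.75 CPM in dsLacZ (edgeR adjusted p = 0.267, and 0.0275 by voom with quality weights). Voom with quality weights called 6.62% of all genes. In both genes each library labelled dsFib exceeded each dsLacZ library, as for 11.0% of all genes, but in the deposited CPM the groups overlapped.

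Genes that report amino acids and energy to TOR were the 1 list with more values below 0 (13) than above (9), with a median log2 fold change of -0.05 over 22 tested. Over all 8302 genes tested, more values also lay below 0 (4293) than above (4009), with a median of -0.01. Wdr59, a subunit of the GATOR2 complex, had 12.6, 15.8 and 13.98 CPM in libraries labelled dsFib, against 20.8, 19.1 and 17.5 CPM in dsLacZ. Its groups did not overlap, as was the case toward lower levels for 12.1% of all genes, and its log2 fold change was -0.44 (SE 0.15, edgeR adjusted p = 0.214). Sec13, which is also part of GATOR2 and of the COPII coat, leaned the other way, with a log2 fold change of 0.28 (SE 0.12, edgeR adjusted p = 0.320).

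Outputs of TOR in translation and growth had a median log2 fold change of 0.02 over 11 tested genes. RpS6, the ribosomal protein that S6k phosphorylates, had 117, 123 and 101 CPM in libraries labelled dsFib, against 92.2, 65.2 and 80.6 CPM in dsLacZ. The groups did not overlap, as for 11.0% of all genes, but they did in the deposited CPM, with 96.0 CPM in replicate 3 labelled dsFib and 103 CPM in dsLacZ replicate 1. The log2 fold change of 0.51 (SE 0.14) did not pass with edgeR (adjusted p = 0.133) but did with DESeq2 (adjusted p = 0.0485). DESeq2 called 3.52% of the genes it tested. Atg13, which acts with the kinase Atg1 at the start of autophagy, had 8.32 ± 1.31 CPM in libraries labelled dsFib and 5.51 ± 1.05 CPM in dsLacZ (edgeR adjusted p = 0.257).

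A list of 7 genes linked to Foxo in flies, besides InR and Thor, had 4 tested members. Their median log2 fold change was 0.47, with 3 above 0. The TGF-beta family ligand gene daw, a Foxo target in fly muscle, had 29.5, 23.1 and 32.3 CPM in libraries labelled dsFib, against 16.7, 6.88 and 13.3 CPM in dsLacZ. Its fold was 2.29 (log2 1.20, SE 0.29), and edgeR gave an adjusted p of 0.0961. The groups did not overlap in TMM-scaled CPM, as for 11.0% of all genes toward higher levels, nor in deposited CPM. The gene daw passed with DESeq2 (adjusted p = 0.00421), which called 3.52% of the genes it tested. With voom quality weights (adjusted p = 0.0105), which called 6.62% of all genes, it passed as well. It also passed without a filter on low counts (edgeR, adjusted p = 0.00179) and without dsLacZ replicate 1 or 2 (edgeR, adjusted p = 0.0491 and 0.0255). These settings called more genes than the 75 of 8302 in the main fit. The numbers were 283 without a filter, 113 of 8513 without dsLacZ replicate 1 and 310 of 8539 without dsLacZ replicate 2. Without dsLacZ replicate 2, the log2 fold change of daw was 0.92. The gene daw did not pass under the other 10 alternatives, where the edgeR adjusted p reached 0.346 without replicate 1 labelled dsFib. Sirt1, a deacetylase gene, had 18.4 ± 2.22 CPM in libraries labelled dsFib and 12.5 ± 1.91 CPM in dsLacZ (edgeR adjusted p = 0.179).

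**Figure D5:**
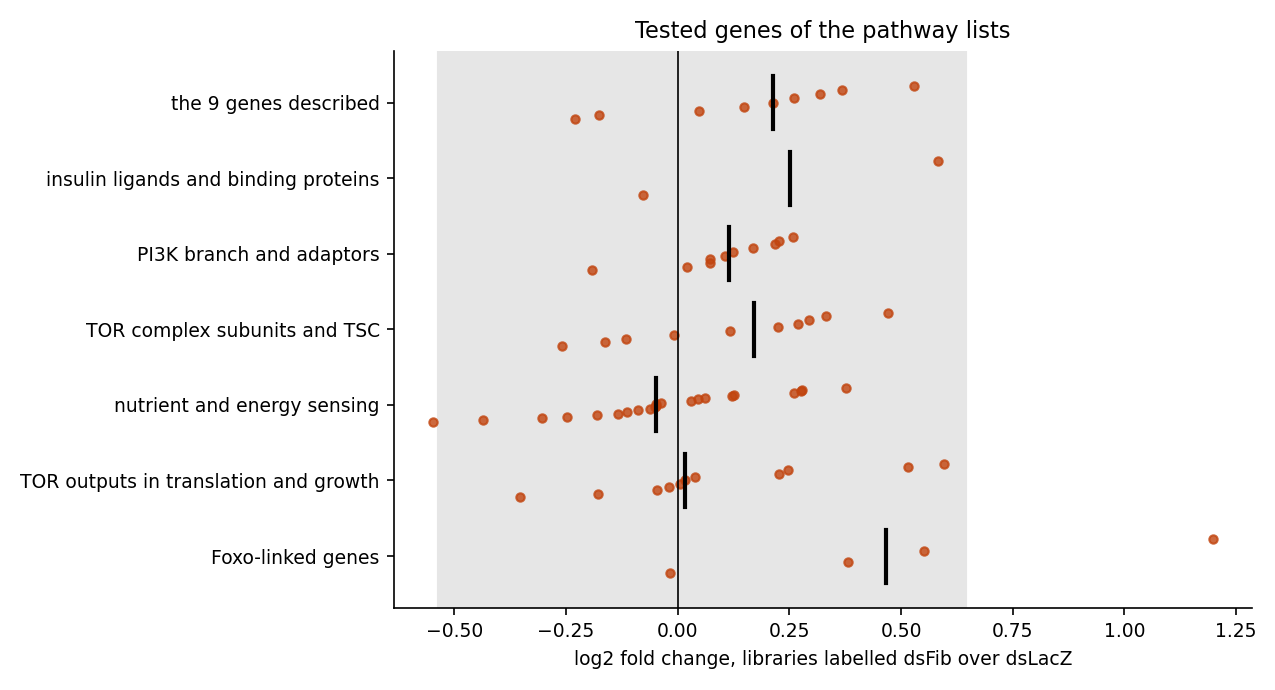
Log2 fold changes (libraries labelled dsFib over dsLacZ) of the tested genes in the 9 described and in 6 other pathway lists, 1 point per gene, with list medians as black bars. The grey band holds the 5th to 95th percentile of all 8302 genes (-0.54 to 0.65), and daw, at 1.20 among the Foxo-linked genes, lies beyond its upper edge. BHD, at -0.55 in nutrient and energy sensing, lies just below the lower edge of the band. With 16 to 48 counts per library, BHD had overlapping groups and a 95% interval of -1.55 to 0.46.

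Profiles over the 6 libraries were also compared with that of REPTOR, as the gene with the smallest p-value among the 9. Among 6602 candidates with a mean of at least 5 CPM, the closest by mean absolute difference of centred log2 CPM were trx (0.0399), dikar (0.0427) and RpS6 (0.0458). The chromatin regulator gene trx had 143, 163 and 142 CPM in libraries labelled dsFib, against 120.4, 79.3 and 96.3 CPM in dsLacZ. Like REPTOR, it was highest in replicate 2 labelled dsFib and lowest in dsLacZ replicate 2, a likeness that follows from how trx was picked.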

How the data were processed

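The count, CPM and TPM columns deposited by the authors were read for 6 libraries. Counts are the authors' estimated counts per gene, not all whole (7.10% to 9.27% of values fractional). The CPM deposited by the authors equal the count over the library total. The TPM are the authors', per the file headers, and their sum is the same in each library. Named in the submitters' processing notes are dm6, STAR, Bowtie2 and cutadapt 3.4. CoCo stands in the table names. For the strand setting, gene models and read filters, the sources used here give nothing.

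Counts were rounded, filtered with filterByExpr (8302 genes left), scaled by TMM and tested with edgeR 4.0.16 in R 4.3.3 (quasi-likelihood test, group as the single term). Benjamini-Hochberg adjustment ran over all genes, with a threshold of 0.05. Intervals are 95% from the model's SE. The code was tested on simulated data. Ratios within libraries used an exact permutation test. DESeq2 1.42.0 and limma 3.58.1 served as alternatives, beside other scalings, no filter, a minimum mean count of 10, a replicate block and leaving out each library. Voom with quality weights and the ratios were added after seeing the data.

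Members and lists were chosen with earlier results of these data known. Genes were named by rule: the 9 and Akt1, Fib, the 2 genes of each list with the smallest p and any past the threshold, and the 3 closest to REPTOR. Of the listed names, 7 were matched by gene ID. Other list genes named, with the markers and Mipp2, are described for what they are, after their values were seen.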

Additional observations from a re-analysis of the deposited data

How the results depend on the processing

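Under all 15 alternatives REPTOR, InR, chico, Thor, raptor and Tor kept their direction. The number of the 9 genes past the threshold, 0 with edgeR, was 1 with DESeq2, 1 without a filter on low counts, 1 with voom quality weights (chosen after seeing the data) and 0 to 1 when a library was left out. REPTOR was that gene each time. Of the 74 other pathway genes, of which 59 were tested in the main fit, 0 passed. The number was 2 with DESeq2, 2 without a filter, 3 with voom quality weights and 0 to 1 with a library left out. DESeq2 called 3.52% of all genes it tested and voom with quality weights 6.62%. Over all genes, 75 passed, against 31 with total counts alone, 270 with DESeq2, 283 without a filter, 550 with voom quality weights, 1 with a replicate block and 2 to 310 with a library left out: 2, 7 and 2 without replicates 1, 2 and 3 labelled dsFib, and 113, 310 and 3 without dsLacZ replicates 1, 2 and 3. The causes were not tested.

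Signs turned in small values. With a library left out, the log2 fold change lay between -0.072 and 0.013 for Akt1, -0.016 and 0.12 for foxo, -0.058 and 0.33 for S6k, and -0.42 and 0.21 for Ilp6. The difference of the log2 ratio lay between -0.012 and 0.13 for foxo to Akt1 and between -0.022 and 0.26 for Thor to eIF4E1. With voom quality weights foxo was at -0.0062 and REPTOR-BP at 0.10.

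No pairing by replicate number was seen: same-numbered libraries deviated from their group means with correlations of -0.04, -0.21 and -0.11. With 3 libraries per group, these values cannot show whether same-numbered libraries were prepared together. With the replicate block, 0 of the 9 genes passed and REPTOR had a log2 fold change of 0.54 (edgeR adjusted p = 0.322). Depth limits Thor and chico most.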
